A study of Homo sapiens with 15 samples.

Results

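CISH, the 7 genes SOCS1 to SOCS7 and the pair STAT5A and STAT5B form one feedback circuit of cytokine signalling, and their RNA was followed in KPL4 cells, a line from a human breast adenocarcinoma in which HER2 is amplified. The 10 genes were taken by symbol from the 60664 entries of the gene table, and all 10 were among the 19516 genes with enough reads to be tested. The set was chosen from measured values of these data with CISH as its leading gene, and the comparison that singled it out was not recorded. CISH is therefore described by its levels and fold changes without a test. The other 9 genes, which with CISH make up the complete SOCS and STAT5 families, are tested.

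There were 5 groups of 3 libraries. Control cells had their endogenous estrogen receptor β (ERβ), a ligand-activated transcription factor encoded by ESR2. Knockout cells had this receptor deleted, and exogenous ERβ was put back into them to give the add-back cells. Vehicle and LY500307 cells were add-back cells depleted of steroids for 72 h (no phenol red, 1% serum treated with charcoal). A further 24 h followed with DMSO or with LY500307, a synthetic agonist of ERβ, at 200 nM. The untreated groups grew in Ham's F12 medium with 7% serum, 10 mM HEPES, 5 µg/mL insulin and 1 µg/mL hydrocortisone. Whether the depleted medium contained insulin or hydrocortisone is not stated, and medium, time and DMSO change together between add-back and vehicle cells. All groups other than control descend from knockout cells. Whether these are 1 clone, and whether libraries of a group came from separate cultures, the labels do not say, so p-values measure the spread between libraries, which may be technical.

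When prolactin, growth hormone, erythropoietin or an interleukin binds its receptor, JAK kinases phosphorylate the receptor and the transcription factors STAT5A and STAT5B, which enter the nucleus and bind DNA as dimers. CISH, the first SOCS family gene to be described, is a textbook direct target of STAT5, and its protein CIS binds phosphorylated receptors and dampens the signal. SOCS1, SOCS2 and SOCS3 are also cytokine-induced inhibitors, whereas SOCS4 to SOCS7 act mainly on growth factor receptors and their adaptors. All carry an SH2 domain and a SOCS box that recruits a ubiquitin ligase. In mammary epithelium, prolactin acting through STAT5 drives alveolar differentiation and milk protein expression.

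The stretches of the CISH promoter that carry STAT-type motifs are shown because CISH is the member whose level differed most between groups. The capitals mark matches to TTCNNNGAA, the palindrome bound by STAT5, which reads the same on both strands. Both stretches are 5′ to 3′ on the minus strand, the strand of CISH, from RefSeq promoters of GRCh38.p14.
CISH distal pair: cgttTTCCTGGAAagTTCTTGGAAatct
CISH proximal pair: ggTTCTAGGAAgacgctgcTTCCGGGAAgg
The distal stretch lies at chr3:50611992-50612019, 245 to 218 bases before the RefSeq start of CISH, and the proximal one at chr3:50611876-50611905, 131 to 102 bases before it. The 250 bases before the CISH start held 4 matches, of which the farthest begins 241 bases and the nearest ends 104 bases upstream. Of 35116 RefSeq promoters of the same length, 2306 (6.57%) had at least 1 match and 5 (0.0142%) had 4, the largest number in any of them. The 7 members with a promoter entry were CISH, SOCS1, SOCS3, SOCS4, SOCS6, STAT5A and STAT5B, and CISH was the only one of these with a match in its windows. The CISH window held no palindromic estrogen response element (present in 0.0399% of promoters), no GGTCA half-site on either strand (32.6%) and neither TGACTCA nor TGAGTCA (4.2%). The palindromic element contains the half-site. A match is a description of letters, not of binding, and factor binding was not measured here.

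**Figure D1:**
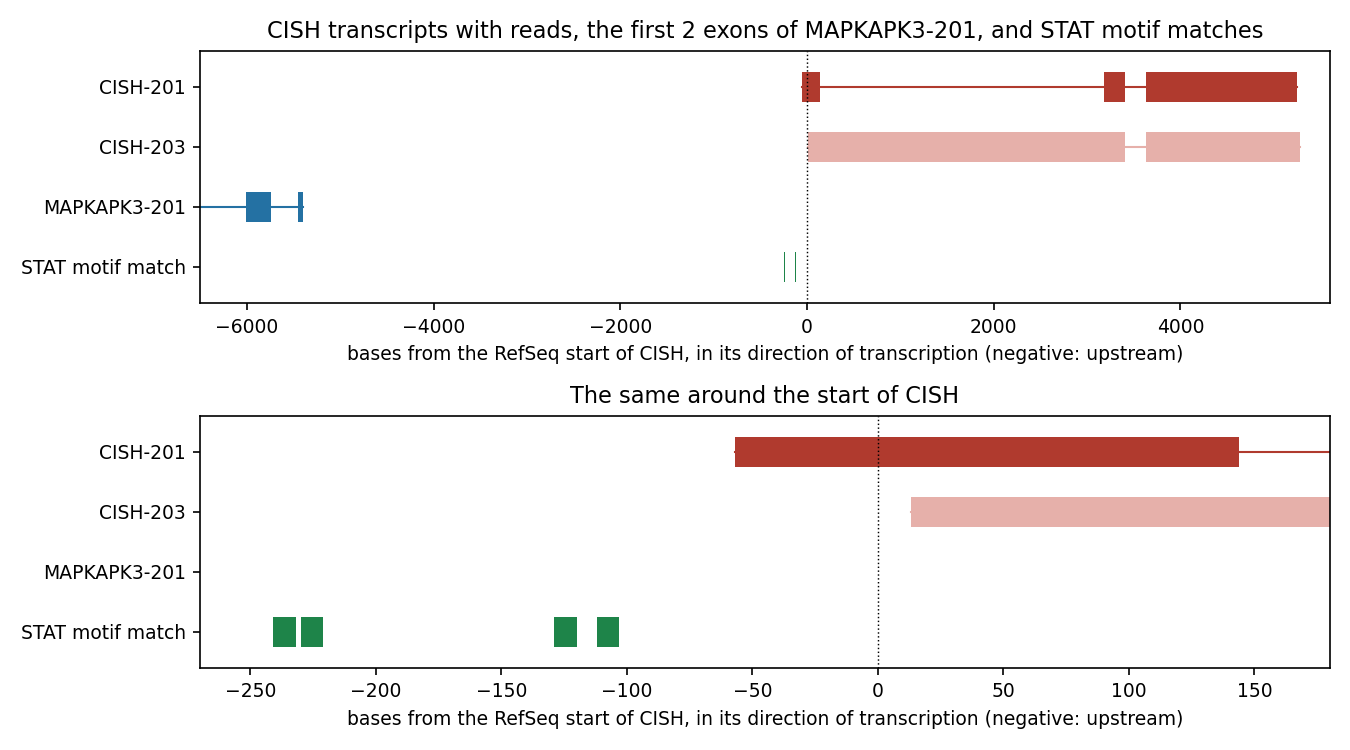
Positions in bases from the RefSeq start of CISH along its direction of transcription, for the exons of both CISH transcripts with reads, the first 2 exons of the opposite-strand transcript MAPKAPK3-201 (thin lines are introns) and the motif matches. The upper panel spans the gene and the lower one its start, where the 4 matches lie between 241 and 104 bases upstream and outside the CISH exons.

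Depth was 12614074 to 19390378 expected counts per library. Levels are CPM, counts divided by library size with TMM scaling, as mean ± SD over 3 libraries unless single libraries are given, and fold changes are log2 values ± SE of the fit. The RNA of ESR2 had a mean of 5.76 ± 0.867 CPM in control, 4.41 ± 1.36 in knockout and 32.8 ± 1.94 CPM in add-back libraries. The knockout label was thus not checked by RNA, which can remain when an edit removes the protein. Epithelial markers summed to 2437 to 3696 CPM in every library. Immune markers summed to at most 0.919 CPM and fibroblast markers to at most 4.59 CPM, with COL1A2 at 0 in 14 and PDGFRB at 0 in 12 of 15 libraries. Endothelial markers summed to 2.97 to 4.72 CPM in untreated libraries and 10.3 to 12.2 CPM in the depleted medium, mostly VWF (2.45 to 10.3 CPM over all libraries), with PECAM1 at most at 0.457 CPM. The part of these markers in the differences between depleted and full medium was not tested.

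CISH (ENSG00000114737, GRCh38 chr3:50606490-50611831, minus strand) was nearly silent in control cells and most abundant in knockout and LY500307 cells. Its level in the 3 control libraries was 0.227, 0.571 and 0.632 CPM, which are 3, 8 and 10 reads. The 3 knockout libraries had 5.91, 5.48 and 5.69 CPM, which are 83, 72 and 93 reads. Every knockout library was above every control library, with means of 5.70 ± 0.217 and 0.477 ± 0.218 CPM, an 11.95-fold difference (log2 fold change 3.53 ± 0.24). By log2 fold change CISH ranked 87 from the top among the 19516 genes. The summed 21 control reads have a 95% exact Poisson interval of 0.302 to 0.746 CPM, which covers counting error only.

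Add-back cells held intermediate CISH levels of 3.69, 3.04 and 3.00 CPM. They lay below all knockout and above all control libraries. Their mean of 3.24 ± 0.386 CPM was 1.76-fold lower than in knockout cells (log2 fold change -0.81 ± 0.17) and 6.80-fold higher than in control cells (2.71 ± 0.26). Untreated cells with exogenous ERβ thus had less CISH than knockout cells and more than control cells. All comparisons here share libraries with at least 1 other.

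In depleted medium with vehicle CISH was at 1.44, 1.49 and 1.23 CPM, below every add-back library. The mean of 1.39 ± 0.141 CPM was 2.34-fold lower than in add-back cells (log2 fold change -1.21 ± 0.20). With LY500307 the libraries had 4.24, 5.74 and 5.69 CPM, all above every vehicle library. The mean of 5.23 ± 0.850 CPM was 3.77-fold that of vehicle (log2 fold change 1.90 ± 0.19), and CISH ranked 43 from the top among the 19516 genes of this comparison. From low to high the order was control, vehicle, add-back, and then LY500307 and knockout, whose ranges overlapped. No other groups overlapped. Across all alternatives the CISH log2 fold change stayed between 3.22 and 3.79 for knockout against control and between 1.79 and 2.04 for LY500307 against vehicle.

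**Figure D2:**
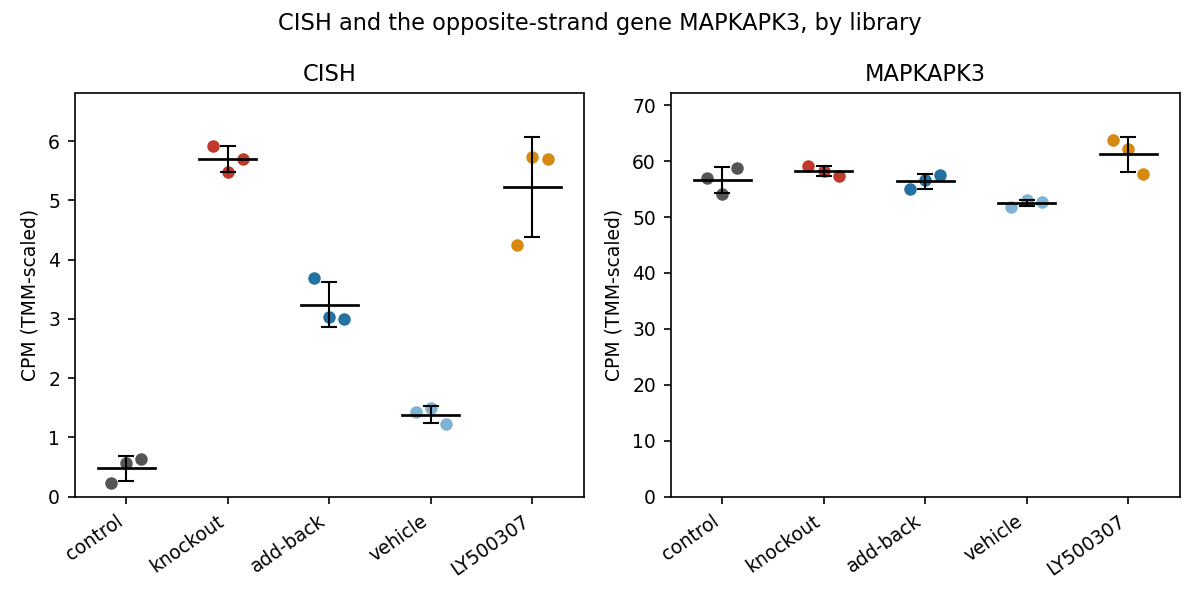
CISH and MAPKAPK3 in CPM on linear axes from 0, with 1 point per library, a bar at the mean and whiskers of 1 SD (n = 3). CISH ran from 0.227 CPM in a control library to 5.91 CPM in a knockout library, while the group means of MAPKAPK3 stayed between 52.5 and 61.2 CPM.

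MAPKAPK3, a kinase gene downstream of p38, lies head to head with CISH on the plus strand (ENSG00000114738, chr3:50611520-50649297), and the annotated spans share 312 bases. Whether strand was used in counting is not given in the sources used here, so reads from the shared bases could not be assigned from the deposited table alone. Among 8 MAPKAPK3 transcripts only MAPKAPK3-206 shares exon bases with CISH (218), and it held 1 read over all libraries. MAPKAPK3-201, with 92.0% to 97.5% of the gene's counts by group, shares 0 exon bases with any CISH transcript. The distal motif stretch falls in exons of MAPKAPK3-203 and MAPKAPK3-206.

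MAPKAPK3 was at 56.6 ± 2.36 CPM in control, 58.2 ± 0.845 in knockout, 56.4 ± 1.34 in add-back, 52.5 ± 0.581 in vehicle and 61.2 ± 3.16 CPM in LY500307 cells. Only LY500307 against vehicle passed the test (log2 fold change 0.22 ± 0.05, adjusted p = 0.00689), and with GC and length offsets it did not (0.14, adjusted p = 0.19). With offsets MAPKAPK3 was instead called lower in knockout against control (-0.12, edgeR adjusted p = 0.0469) and in add-back against control (-0.14, 0.0229). In vehicle against add-back it was called lower in 6 of 15 alternatives. CISH amounted to 0.399% to 1.08% of MAPKAPK3 in control libraries, 9.42% to 10.0% in knockout, 5.22% to 6.71% in add-back, 2.33% to 2.82% in vehicle and 6.65% to 9.87% in LY500307 libraries. These are ratios of CPM, without regard to length. They separate the same groups as the CISH levels do, except that add-back and LY500307 libraries overlap in the ratio.

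Of 3 annotated CISH transcripts 2 had reads. CISH-201 is the spliced coding transcript of 2043 bases, and CISH-203, of 5042 bases, keeps an intron. The estimated counts of CISH-201 summed to 16.2 in control, 160 in knockout, 85.1 in add-back, 35.9 in vehicle and 138 in LY500307 libraries. Those of CISH-203 summed to 4.84, 88.1, 73.9, 32.1 and 129. Both forms were thus lowest in control cells. CISH-201 took 77.0% of the gene's counts in control, 64.5% in knockout, 53.5% in add-back, 52.7% in vehicle and 51.8% in LY500307 cells, and these shares rest on the RSEM division of few reads and were not tested.

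The 6 tested genes nearest to CISH, CACNA2D2, C3orf18, HEMK1, DOCK3, ZNF652P1 and MANF, were compared with it. In knockout against control 2 were called higher and 1 lower, near the share of 46.0% of all tested genes called there, with a median log2 fold change of 0.04 and a highest value of 1.64, against 3.53 for CISH. In add-back against control 4 were called higher and 1 lower, where 45.8% of all genes were called. The median there was 0.22 and the highest value 1.70, against 2.71 for CISH. Add-back against knockout had 1 higher and 0 lower (19.6% of all genes called), and vehicle against add-back 1 and 1 (48.1%). With LY500307 against vehicle, where 7.12% of all genes were called, none of the 6 was called by edgeR, with values between -0.22 and 0.21, against 1.90 for CISH.

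By Pearson correlation of log2 CPM over the 15 libraries, the genes most like CISH among 12116 protein-coding genes were MYBL1 (r = 0.948), a transcription factor, CLTB (0.940), a clathrin light chain, PRXL2B (0.939), FBXL14 (0.933), an F-box protein, and SYVN1 (0.933), a ubiquitin ligase of the endoplasmic reticulum. MYBL1 was at 31.7 CPM in control, 53.7 in knockout, 48.7 in add-back, 41.8 in vehicle and 49.2 CPM in LY500307 cells, the same order of group means as CISH. These genes were picked for their likeness, and libraries of a group share their condition, so the values are a description. Among the other members the correlation with CISH ran from -0.688 (SOCS4) to 0.513 (SOCS1).

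Few of the 9 SOCS and STAT5 genes were called between untreated groups. In knockout against control 1 of 9 was called, SOCS4, which was lower. The background was 46.0% of all tested genes, with 23.4% higher and 22.6% lower, and 1 of 9 lies below it. The median log2 fold change of the 9 genes was 0.02, against -0.0049 over all genes, and the range was -0.26 to 0.59.

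In add-back against knockout 1 of 9 was called, SOCS7, which was lower, against 19.6% of all genes (10.4% higher and 9.19% lower). In add-back against control 2 of 9 were called, SOCS3 and SOCS4, both lower, against 45.8% of all genes (23.2% higher and 22.7% lower). In vehicle against add-back 5 of 9 were called, SOCS2, SOCS4, SOCS6, SOCS7 and STAT5A, all higher, against 48.1% of all genes (26.4% higher and 21.6% lower). The median of the 9 was 0.17 there, against 0.01 over all genes. Among the 5 called, SOCS2 passed the filter on low counts only through the depleted-medium libraries. With LY500307 against vehicle 0 of 9 were called by edgeR and 0 by DESeq2, against 7.12% of all genes (4.77% higher and 2.35% lower), and SOCS7 alone had an unadjusted p under 0.05.

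**Figure D3:**
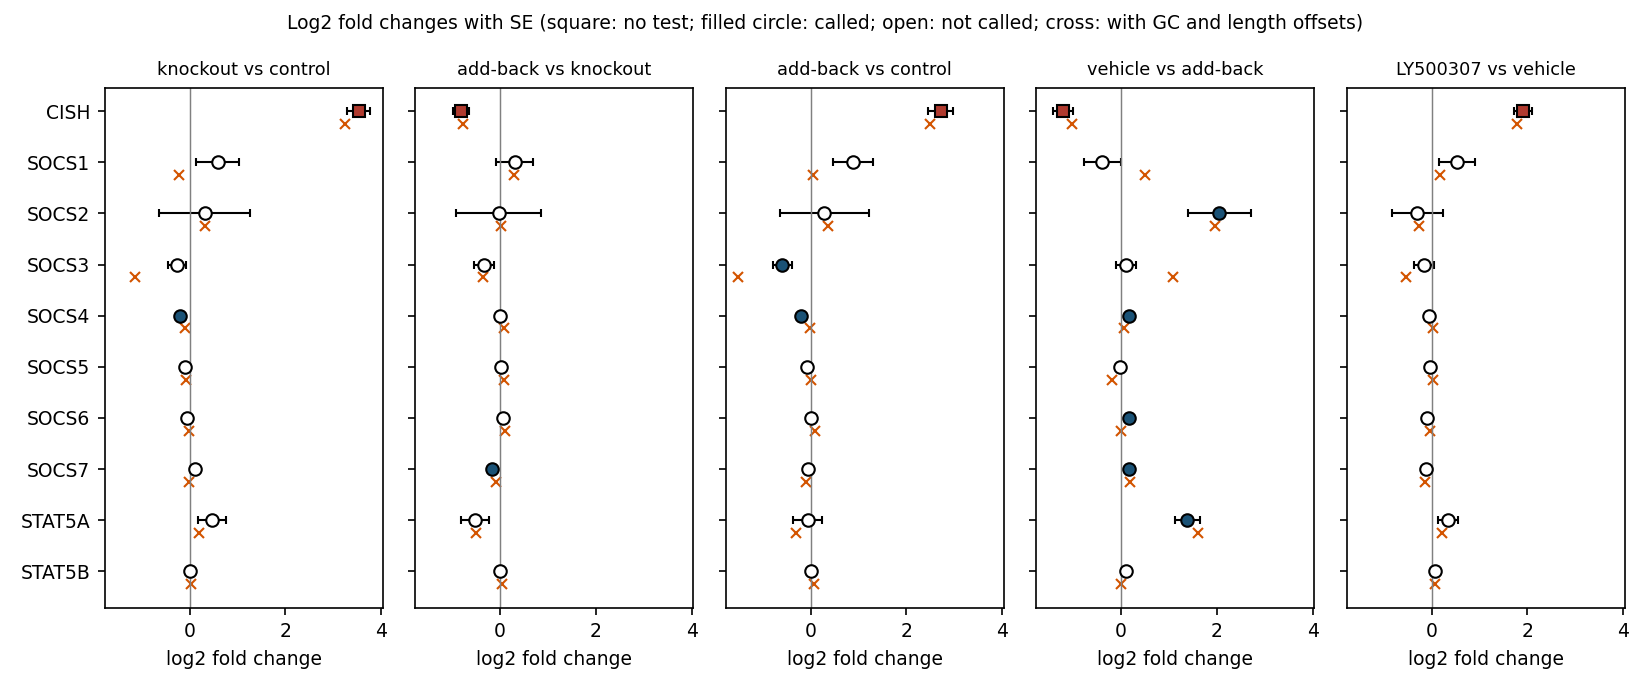
Log2 fold changes of the 10 genes with SE in 5 comparisons (edgeR, 3 libraries a group). CISH (squares) has no test, filled circles are called genes, open circles are not called, and crosses give the value with GC and length offsets. CISH has the largest absolute value in every panel but vehicle against add-back, where SOCS2 (2.05) and STAT5A (1.38) exceed its size.

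Among the cytokine-induced inhibitors, SOCS2 (ENSG00000120833, chr12:93569814-93583487, plus strand), a regulator of growth hormone signalling, was scarcely detected outside the depleted medium. Untreated libraries had 0 to 0.455 CPM, that is 0 to 6 reads, with no read in control replicate 3 and knockout replicate 1. Vehicle libraries had 0.523, 0.854 and 1.23 CPM, and LY500307 libraries 0.905, 0.785 and 0.411 CPM. All vehicle libraries were above all add-back libraries (0.129, 0.331 and 0.128 CPM). The mean rose 4.42-fold (log2 fold change 2.05 ± 0.67, edgeR adjusted p = 0.0157). SOCS2 passed the filter on low counts only through the depleted-medium libraries, where it was high. Its p-value is therefore a description and not support for the rise. The call was lost without add-back replicate 1 (adjusted p = 0.0654), add-back replicate 3 (0.0627) or vehicle replicate 3 (0.0724), and it rests on 42 reads against 10. SOCS2 and SOCS2-AS1 overlap on opposite strands, but SOCS2-AS1 was at most at 0.285 CPM.

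The genes most like SOCS2 over the 15 libraries were PNPLA4 (r = 0.903), SPTY2D1, C15orf48, PNRC2 and ZNF697 (0.882), again by description only. C15orf48 had a mean of 1.16 ± 0.674 CPM in control and 6.77 ± 0.535 CPM in vehicle libraries. All 5 had their highest means in the 2 depleted-medium groups.

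SOCS3 (ENSG00000184557, chr17:78356778-78360077, minus strand), an inhibitor of gp130 receptors, was at 1.97, 1.93 and 2.34 CPM in control libraries and 1.23, 1.38 and 1.53 CPM in add-back libraries. All add-back libraries were below all control libraries, a 1.505-fold lower mean (log2 fold change -0.59 ± 0.20, edgeR adjusted p = 0.0234). Knockout libraries, at 1.67 to 1.84 CPM, lay between them and did not differ from either past the threshold (adjusted p = 0.358 against control and 0.350 for add-back against knockout). The add-back call was lost with DESeq2 (adjusted p = 0.161), with no filter on low counts (0.144), with the 6 libraries alone (0.0557), and without add-back replicate 1 (0.0945), add-back replicate 2 (0.0640) or control replicate 3 (0.143). With GC and length offsets the value was -1.50, and SOCS3 was then also called in knockout against control (-1.14, adjusted p = 0.000223) and in vehicle against add-back (1.08, adjusted p = 0.000714). The GC content of SOCS3 transcripts is 68.1%.

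SOCS1 (ENSG00000185338, chr16:11254405-11256200, minus strand), an inhibitor of interferon receptors, stayed between 0.190 and 0.792 CPM, which is 3 to 14 reads per library. Groups overlapped in every comparison and none passed the test. The value nearest to the threshold was add-back against control (log2 fold change 0.89 ± 0.42, adjusted p = 0.0984). Its 95% interval by normal approximation was 0.06 to 1.71, which is narrower than the edgeR test implies (unadjusted p = 0.0516). SOCS1 lies inside RMI2, a gene of the opposite strand at 12.1 CPM on average, with 0 shared exon bases.

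**Figure D4:**
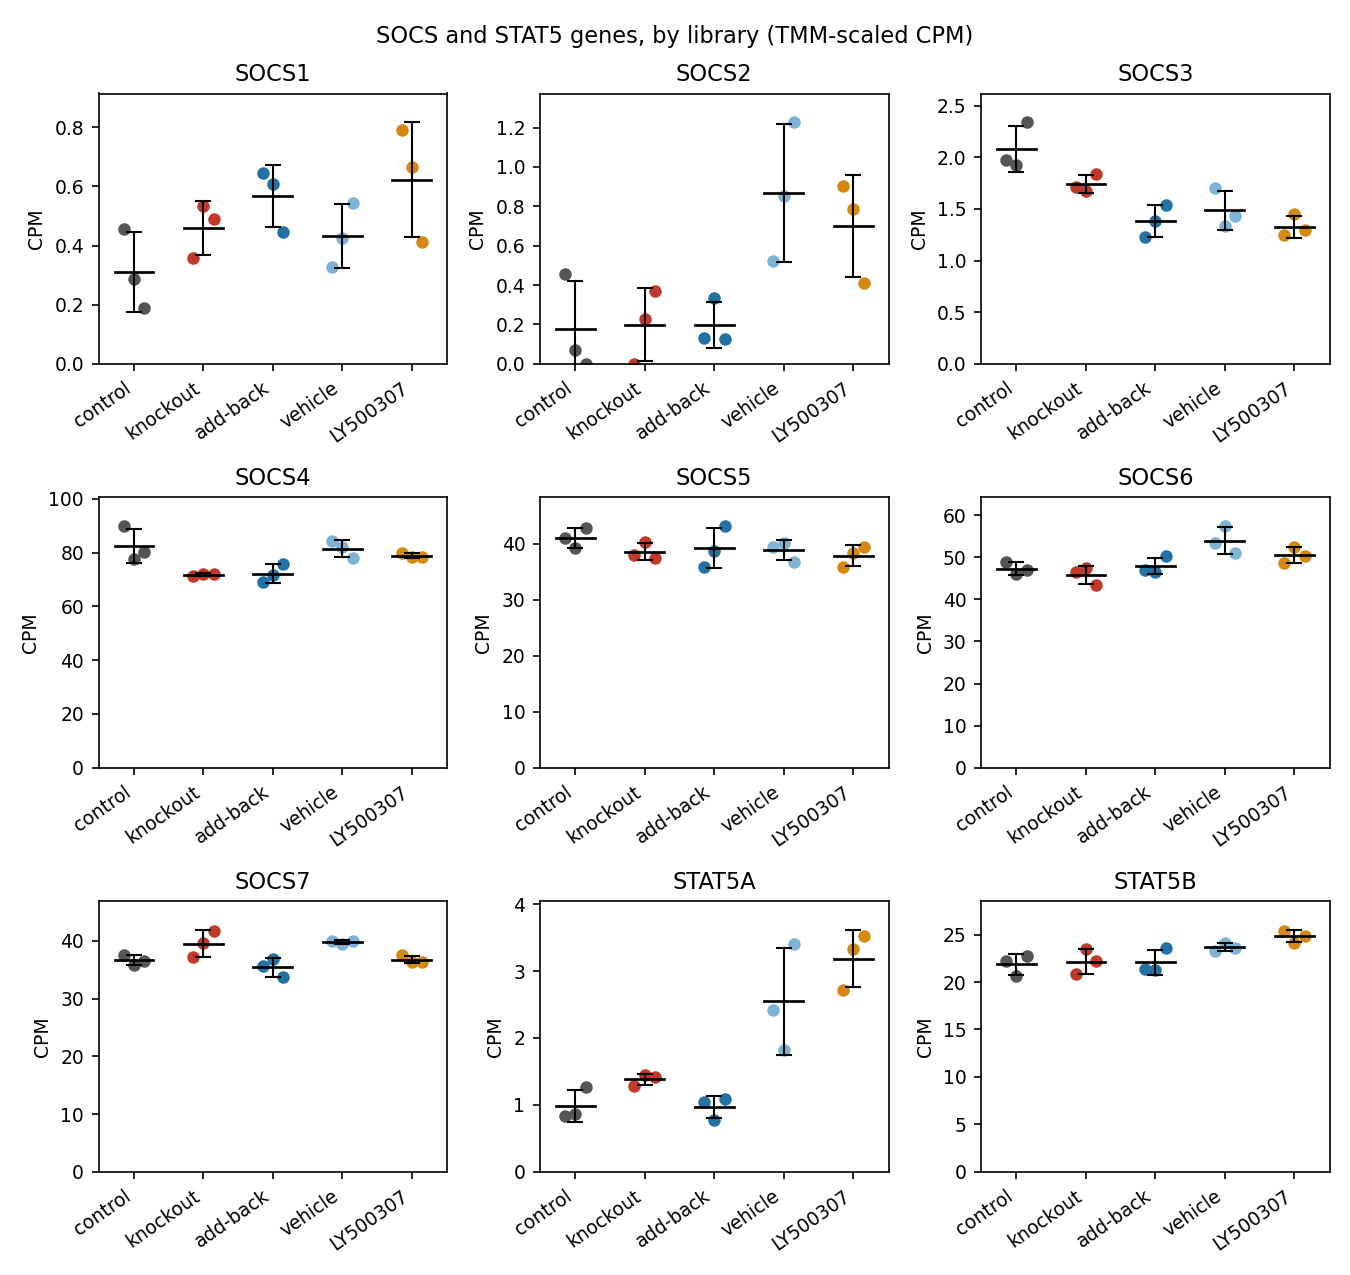
SOCS and STAT5 genes in CPM on linear axes from 0, with 1 point per library, a bar at the mean and whiskers of 1 SD (n = 3). SOCS2 and STAT5A stand higher in vehicle and LY500307 libraries, while SOCS4 to SOCS7 and STAT5B stay in narrow ranges.

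The growth factor receptor group, SOCS4 to SOCS7, varied little in level between groups. SOCS4 (ENSG00000180008, chr14:55027230-55049488, plus strand), which binds the EGF receptor, had group means of 71.8 to 82.6 CPM. Control libraries had 89.8, 77.8 and 80.1 CPM and knockout libraries 71.3, 72.1 and 72.1 CPM, without overlap (log2 fold change -0.20 ± 0.05, edgeR adjusted p = 0.00299). Add-back libraries (69.1, 71.8 and 75.8 CPM) were also lower than control (-0.19 ± 0.05, adjusted p = 0.00392), and the level was higher again with vehicle (84.3, 82.0 and 78.0 CPM, 0.17 ± 0.05, adjusted p = 0.00730). With GC and length offsets none of these 3 calls held, with values of -0.09, -0.02 and 0.06 (adjusted p = 0.206, 0.825 and 0.436). SOCS4 transcripts have a GC content of 35.6%, the lowest among the members. The add-back against control call was lost without control replicate 1 (adjusted p = 0.0537), and the vehicle call without add-back replicate 1 or 2 or vehicle replicate 1 or 2 (0.0512 to 0.103).

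SOCS5 (ENSG00000171150, chr2:46698952-46780245, plus strand), another inhibitor of EGF receptor signalling, did not pass in any comparison, with group means of 37.8 to 40.9 CPM. With offsets it was called in vehicle against add-back (-0.19, adjusted p = 0.0135). SOCS6 (ENSG00000170677, chr18:70288901-70330200, plus strand), which binds KIT and insulin receptor substrates, was at 46.9, 46.6 and 50.2 CPM in add-back and 53.4, 57.3 and 51.1 CPM in vehicle libraries. The vehicle libraries lay above the add-back libraries (log2 fold change 0.17 ± 0.05, adjusted p = 0.00996). The value was 0.01 with offsets (adjusted p = 0.916), and the call was lost without add-back replicate 1 or 2 or vehicle replicate 2 (0.0859 to 0.152).

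SOCS7 (ENSG00000274211, chr17:38352228-38405593, plus strand) is known as an inhibitor of insulin signalling. Its means were 36.6 ± 0.871 CPM in control, 39.5 ± 2.29 in knockout, 35.4 ± 1.62 in add-back, 39.8 ± 0.323 in vehicle and 36.8 ± 0.657 CPM in LY500307 cells. Add-back cells had less of it than knockout cells (a log2 fold change of -0.16 ± 0.05, adjusted p = 0.0298), and vehicle cells had more of it than add-back cells (0.17 ± 0.05, adjusted p = 0.00841). Knockout against control missed the threshold (0.11 ± 0.05, adjusted p = 0.0765) and passed it with upper-quartile factors (0.0468) or without knockout replicate 1 (0.0206). The add-back against knockout call was lost with DESeq2, offsets, RLE factors, no filter or the 6 libraries alone (0.0505 to 0.227) and without add-back replicate 1 or 3 or knockout replicate 2 or 3 (0.103 to 0.247). The vehicle call was lost with DESeq2 (0.0878), with no filter (0.103) and without add-back replicate 1 or 3 or vehicle replicate 1 or 3 (0.0581 to 0.122). LY500307 libraries (37.5, 36.4 and 36.3 CPM) all lay below the vehicle libraries (40.0, 39.5 and 40.0 CPM), a difference of -0.12 ± 0.05 with an adjusted p of 0.171.

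STAT5A (ENSG00000126561, chr17:42287547-42311943, plus strand), one of the STAT5 transcription factors, was at 0.833, 0.857 and 1.26 CPM in control, 1.28, 1.45 and 1.41 CPM in knockout and 1.04, 0.773 and 1.09 CPM in add-back libraries. The knockout libraries lay above both other groups, but neither difference passed (adjusted p = 0.211 and 0.232). With vehicle the libraries had 2.42, 1.82 and 3.41 CPM, all above the add-back libraries. The mean rose 2.64-fold (log2 fold change 1.38 ± 0.26, edgeR adjusted p = 0.000175), and the call held in all 15 alternatives. LY500307 libraries had 2.72, 3.32 and 3.52 CPM, overlapping vehicle (0.34 ± 0.21, adjusted p = 0.386, 95% interval by normal approximation -0.08 to 0.76). From add-back to vehicle cells STAT5A was thus higher and CISH lower, and medium, time and DMSO cannot be told apart in this comparison.

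STAT5B (ENSG00000173757, chr17:42199168-42276707, minus strand), the other STAT5 gene, did not pass in any comparison. Its group means ran from 21.9 ± 1.09 CPM in control to 24.8 ± 0.625 CPM in LY500307 cells, and its log2 fold changes from -0.01 to 0.10. STAT5A and STAT5B lie side by side and are near-identical copies, so some reads may have been assigned to the wrong one. The STAT5A transcripts found in GENCODE 29 held 62.05% of its counts.

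Per length, as CPM per kilobase of transcript, SOCS4 was highest, with group means of 14.7 to 16.9, and STAT5B lay at 5.96 to 7.60. CISH ran from 0.201 in control to 2.19 in knockout cells. SOCS3 lay at 0.485 to 0.759, SOCS1 at 0.253 to 0.507 and SOCS2 at 0.105 to 0.481. In knockout cells the CISH level per length was thus above those of SOCS1, SOCS2 and SOCS3, and in control cells it was below that of SOCS3. SOCS7 and STAT5A were left out, since their transcript counts could not all be given a length.

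Among receptors that signal through STAT5, 7 of 12 listed were tested. In knockout against control 3 were higher, PRLR, CSF2RA and GHR, and 0 lower. That is a share near the 46.0% of all genes called there. The list's median log2 fold change was 0.43, against -0.0049 over all genes. PRLR, the prolactin receptor, rose from 29.3, 28.7 and 27.7 CPM in control to 73.0, 74.2 and 71.9 CPM in knockout libraries (log2 fold change 1.355 ± 0.05, edgeR adjusted p = 2.21e-13). GHR, the growth hormone receptor, averaged 0.0897 ± 0.0782 CPM in control libraries and 2.30 ± 0.0262 CPM in knockout libraries. Its p-value is not given because it was chosen after its values were seen. The count of 3 includes its call and is to that extent a description. CSF2RA, a subunit of the GM-CSF receptor, rose by 0.70 on the log2 scale (adjusted p = 0.0114). The CSF2RA call was lost with DESeq2 and without knockout replicate 2.

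In add-back against knockout 3 of the 7 receptors were lower, GHR among them, and 1 higher. The background was 19.6% of all genes called (10.4% higher and 9.19% lower). GHR had a mean of 1.20 ± 0.141 CPM in add-back cells. PRLR fell to 64.9 ± 1.85 CPM (log2 fold change -0.17, adjusted p = 0.0167). CSF2RA fell by 0.74 (adjusted p = 0.0170), and EPOR, the erythropoietin receptor, rose by 0.48 (adjusted p = 0.0445). The PRLR call was lost in 7 of 15 alternatives, the EPOR call in 10 and the CSF2RA call in 4. In vehicle against add-back PRLR was higher (0.28, adjusted p = 7.39e-05), as was CSF2RA (1.76, adjusted p = 2.28e-07), while CISH was lower. Between LY500307 and vehicle 0 of 7 were called by edgeR, with PRLR at 78.6 ± 4.24 and 82.3 ± 4.46 CPM (adjusted p = 0.451).

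Other genes known as STAT5 targets went both ways in knockout against control, with 3 of 12 tested higher and 4 lower (median 0.08), against 46.0% of all genes called. AKT1, the kinase, rose from 89.5 to 176 CPM (log2 fold change 0.98, adjusted p = 3.60e-12), and MYC fell from 157 to 103 CPM (log2 fold change -0.61, adjusted p = 7.87e-10). In vehicle against add-back 2 were higher and 8 lower, against 48.1% of all genes called (26.4% higher and 21.6% lower). Among the lower ones was CCND1, cyclin D1, which fell from 1098 ± 32.6 to 597 ± 15.3 CPM (-0.88, adjusted p = 2.53e-14, and -0.29 with offsets). The list's median there was -0.24, against 0.01 over all genes, and -0.07 with offsets. Of the 8 lower calls 4 held with offsets, those of CCND1, MYC, PIM1 and BCL6, while CCND3 and BCL2L1 were no longer called. The other 2 had the opposite sign, AKT1 (-0.17, and 0.15 with offsets) and PIM3, a kinase (-0.83, and 0.57 with offsets). PIM3 was also called higher in knockout against control (0.43) and had -0.81 with offsets. With LY500307 3 were higher and 0 lower, against 7.12% of all genes called. The 3 were MYC (0.33, adjusted p = 0.00035), AKT1 (0.16, adjusted p = 0.0335) and CCND1 (0.13, adjusted p = 0.0165). MYC was called in all 15 alternatives, AKT1 in 10 and CCND1 in 12, and with offsets the CCND1 value was -0.12. The milk protein genes CSN2 and CSN3 had no read in any library.

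**Figure D5:**
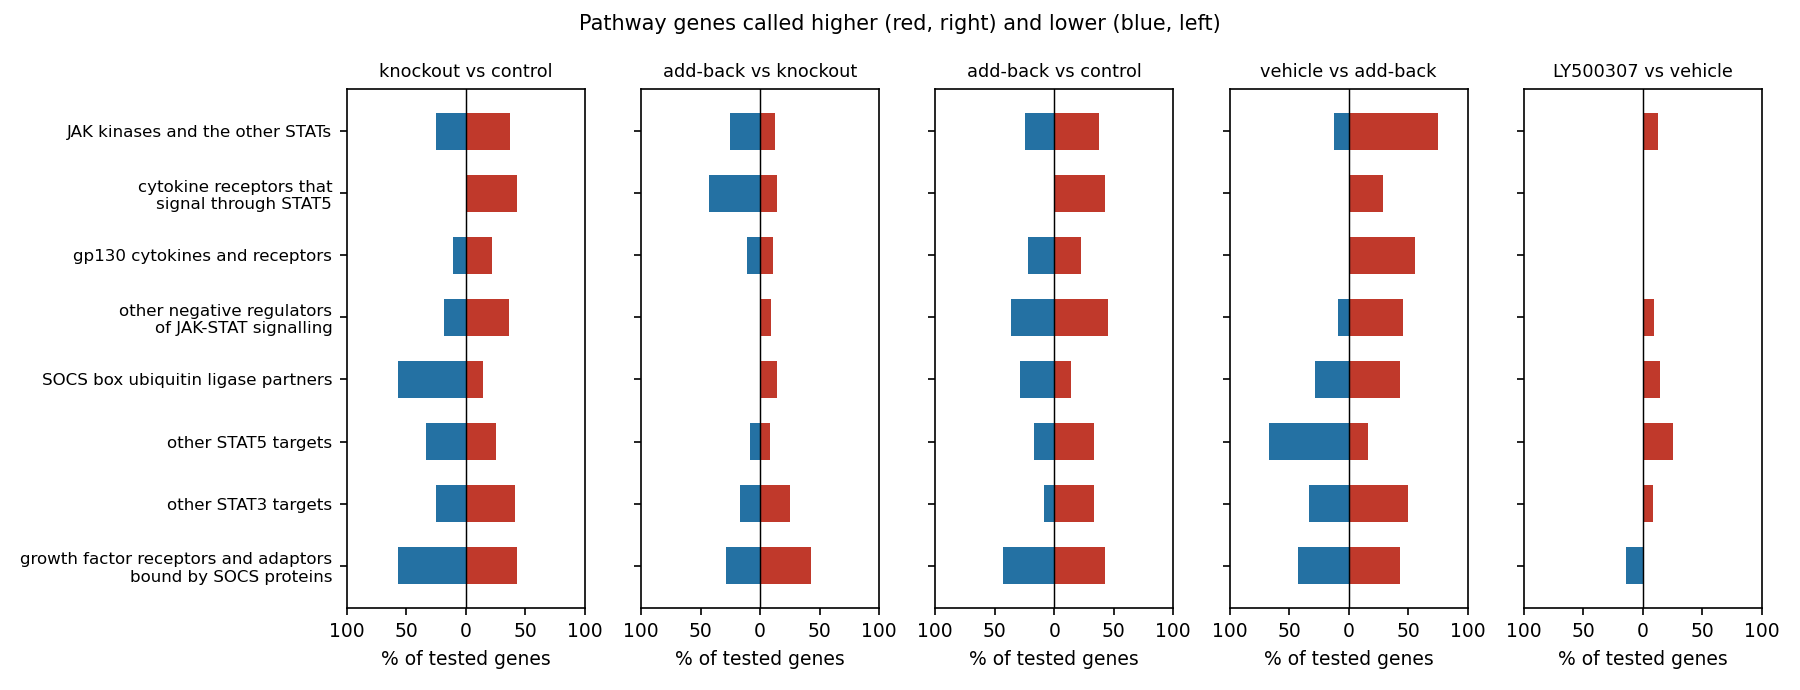
Share of the tested genes of each pathway list that were called higher (right) or lower (left) in 5 comparisons, in percent. In vehicle against add-back 6 of 8 JAK and STAT genes reach to the right and 8 of 12 other STAT5 targets to the left, of which 5 and 4 held with GC and length offsets. In that comparison 48.1% of all tested genes were called.

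JAK kinases and other STATs, 8 genes in the list, went both ways in knockout against control, with 3 higher and 2 lower (median 0.18), against 46.0% of all genes called. With offsets 1 higher and 1 lower call held. JAK3, a kinase of interleukin receptors, rose by 0.53 on the log2 scale (adjusted p = 0.00251) but was not called with offsets (0.07), and neither was TYK2 (0.12). In vehicle against add-back, where 48.1% of all genes were called, 6 of 8 were higher and 1, TYK2, lower (median 0.35, against 0.01 over all genes). With offsets 5 of these 6 and TYK2 held. STAT4 rose from 2.20 ± 0.151 to 4.85 ± 0.908 CPM there (1.15, adjusted p = 5.86e-06). For LY500307 against vehicle, where 7.12% of all genes were called, TYK2 alone was called (0.30, adjusted p = 0.0269), and not with offsets (0.15).

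Other negative regulators of the pathway had 4 of 11 higher and 2 lower in knockout against control, and 5 higher and 1 lower in vehicle against add-back, where 46.0% and 48.1% of all genes were called. With offsets 1 of the 4 higher and 1 of the 2 lower calls held in knockout against control, and 2 of the 5 higher calls with vehicle. The other 3 with vehicle, PIAS1, PIAS2 and PTPN1, held in 4, 3 and 1 of 15 alternatives. CBLB, a ubiquitin ligase, rose from 34.7 ± 2.12 to 68.4 ± 1.99 CPM with vehicle (log2 fold change 0.98, adjusted p = 3.22e-11), and USP18, an interferon-induced inhibitor, by 0.63 (adjusted p = 0.000275). The SOCS box partners, which form the ubiquitin ligase with SOCS proteins, had 1 of 7 higher and 4 lower in knockout against control (median -0.16), of which 0 and 2 held with offsets. UBE2F, an E2 enzyme for NEDD8, fell from 31.5 ± 1.36 to 20.3 ± 1.89 CPM there (-0.64, adjusted p = 3.23e-07).

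Growth factor receptors and adaptors bound by SOCS proteins had 3 of 7 higher and 4 lower in knockout against control (median -0.30), where 46.0% of all genes were called. All 7 calls held with offsets. The 3 higher calls were those of ERBB2, INSR and KIT, and KIT passed the filter on low counts only through the knockout libraries. Its call is therefore no support. KIT, a receptor bound by SOCS6, was listed at 0 reads in control libraries and at 2.52 ± 0.397 CPM in knockout cells, and it was chosen after its values were seen. IRS2, an insulin receptor adaptor, fell from 12.3 ± 0.627 to 4.52 ± 0.256 CPM (log2 fold change -1.44, adjusted p = 2.58e-08). With LY500307, where 7.12% of all genes were called, INSR, the insulin receptor, was the 1 gene called (-0.22, adjusted p = 0.00252), in all 15 alternatives. ERBB2, not called there, was called lower with offsets (-0.09, edgeR adjusted p = 0.0151). It was called higher in 2 of the 15 alternatives, and its highest value was 0.10.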

How the data were processed

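Total RNA depleted of ribosomal RNA was made into stranded libraries, per the labels' protocols. Per the submitters' processing notes, FastQC, Trim Galore, GSNAP and RSEM were used with GRCh38. Versions, the annotation release and the use of strand in counting are not given in the sources used here. What the authors deposited are expected counts from RSEM, not normalized, for genes and for transcripts of 15 libraries.

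Expected counts were rounded and fitted with edgeR 4.0.16 (R 4.3.3, limma 3.58.1) in 1 model of 5 groups, with filterByExpr by group, TMM factors and a two-sided test by quasi-likelihood. A gene was called where its Benjamini-Hochberg p over all 19516 genes was under 0.05. The biological coefficient of variation was 4.99%. Replicates differed by more than counting error (chi-square of 2.15 to 5.43 per degree of freedom), and each was counted as 1 sample. Levels per length use GENCODE 29 transcript lengths. Gene positions, GC content and overlaps came from GENCODE 29, which placed 58396 identifiers, and promoters from RefSeq.

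Members, gene lists and the rule for named genes were chosen with earlier results of these data known. The rule names all members, genes overlapping them, up to 3 called genes with the largest change per list and comparison (mean log2 CPM of at least 1), the 5 genes most like CISH and SOCS2, and the 3 nearest tested genes on each side as counts. Further names are stated as such. The edgeR test and offsets were run on counts simulated from the fit's own model. Such counts cannot tell whether the libraries are technical replicates.

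Replicate numbers did not pair the libraries. Residuals of same-numbered libraries correlated between -0.0952 and 0.0603, and 0 of 30 pairs exceeded 0.1. Alternatives were offsets for GC content and transcript length, DESeq2 1.42.0, limma-voom, scaling by RLE or by upper quartiles, testing without a filter or with a stricter one (CPM of 1 or more in 3 libraries), fitting only the 6 libraries compared, a replicate block, and leaving out each library. Some pathway genes are not reported here.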

Additional observations from a re-analysis of the deposited data

How the results depend on the processing

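Over 75 alternative values the CISH log2 fold changes moved by less than 1 replicate SD and none changed sign. Of 650 alternative values of the 9 tested genes, 609 kept their side of the threshold and 41 changed it, as given beside the genes, and the cause was not tested. The number of these genes called in knockout against control was 1, and 2 with upper-quartile factors. In add-back against knockout it was 1, and 0 with DESeq2, GC and length offsets, RLE factors, no filter on low counts or the 6 libraries alone. In add-back against control it was 2, and 1 with DESeq2, offsets, no filter or the 6 libraries alone. With each library left out in turn, the counts ranged from 1 to 2, 0 to 1 and 1 to 2 in these comparisons, and from 1 to 3 in vehicle against add-back, where 5 were called with all libraries. For LY500307 against vehicle the genes called over the whole table numbered 1389, 284 with offsets, and 299 (without vehicle replicate 2) to 1844 (without vehicle replicate 3) with a library left out. It was 586, 487 and 403 without LY500307 replicate 1, LY500307 replicate 2 or vehicle replicate 1.

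With the replicate block the SOCS and STAT5 calls numbered 1, 1, 2, 5 and 0 in the 5 comparisons, as without it, and the whole table of LY500307 against vehicle had 1216 calls. The share of higher calls in add-back against knockout was 53.1%, and 42.0% with upper-quartile factors and 64.8% with offsets. For LY500307 against vehicle it was 67.0%, 83.1% with no filter and 76.6% with the 6 libraries alone. Of 165 calls of pathway genes, those of KIT and GHR included, 122 were also called the same way with offsets and 107 in every alternative. SOCS1, SOCS2, SOCS3, STAT5A and control CISH rest on few reads, where small differences were not detectable.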

Other observations

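Targets attributed to STAT3, the transcription factor that SOCS3 restrains, had 5 of 12 higher and 3 lower in knockout against control, where 46.0% of all genes were called. With offsets 3 and 3 of these calls held, but 3 genes in all were called higher and 7 lower. The list's median was 0.07, and -0.24 with offsets. LCN2, lipocalin 2, was at 49.2 ± 3.92 CPM in control, 167 ± 6.61 in knockout, 95.8 ± 2.47 in add-back and 426 ± 17.7 CPM in vehicle cells, and each of these steps was called in all 15 alternatives (knockout against control 1.77, adjusted p = 2.28e-15). JUNB, an AP-1 subunit, rose from 7.11 ± 1.03 CPM in control to 20.01 ± 1.35 CPM in add-back cells and fell to 3.94 ± 0.965 CPM with vehicle (-2.36, adjusted p = 1.67e-09). Among gp130 cytokines and receptors 5 of 9 were higher and 0 lower with vehicle, against 48.1% of all genes called, and 4 of these held with offsets, among them LIF, leukaemia inhibitory factor, from 5.24 ± 0.901 to 13.0 ± 1.39 CPM (1.32, adjusted p = 3.58e-08), and OSMR, the oncostatin M receptor, from 20.6 ± 1.00 to 36.3 ± 0.390 CPM (0.81, adjusted p = 2.62e-09).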
